A study of Mus musculus with 32 samples.

Results

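The enzymes described here are the protein-coding genes of 7 families that oxidize or conjugate foreign compounds, odorants and hormones, measured by RNA sequencing in the vomeronasal organ (VNO) of the mouse. They were chosen by symbol alone. The rule took cytochrome P450s (Cyp), flavin-containing monooxygenases (Fmo), aldehyde oxidases (Aox), carboxylesterases (Ces), UDP-glucuronosyltransferases and their relatives (Ugt1a, Ugt2, Ugt8), glutathione S-transferases of the classes alpha, kappa, mu, omega, pi, theta and zeta (Gst) and sulfotransferases (Sult), and found 194 members among the 49671 genes listed. There were 101 Cyp, 22 Gst, 21 Sult, 20 Ugt, 19 Ces, 7 Fmo and 4 Aox genes.

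VNO epithelial tissue was taken from individual mice of 42 days of age, 4 males and 4 females of each of 4 inbred strains, which gave 32 libraries. No mouse carried a transgene, a mutation or a treatment in its label. The strains are labelled 129S6/SVEV (129 below; the study's text names another 129 substrain), C57/BL6 (B6), SJL/J (SJL) and SWR/J (SWR), and each library is a separate mouse. The tissue holds sensory neurons, supporting cells and whatever adjoining gland, respiratory and main olfactory epithelium came with the dissection, so fewer cells of a type and less RNA per cell cannot be told apart.

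Xenobiotic metabolism is usually described in phases. In the first, P450s, Fmo and Aox enzymes add or expose an oxygen, and carboxylesterases cleave esters. In the second, Ugt enzymes attach glucuronic acid, Sult enzymes a sulfate and Gst enzymes glutathione, which makes a compound more soluble and often ends its action. Nasal epithelia are rich in such enzymes, where they are thought to clear odorants from the mucus, to alter their structure and to protect the epithelium from inhaled compounds. Not every member serves this purpose. Cyp51 is an enzyme of sterol synthesis, Cyp26b1 breaks down retinoic acid, Ugt8a makes galactosylceramide, a lipid of myelin, and Sult1e1 inactivates estrogens.

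Depth was 5106398 to 18640871 reads on genes per library, of which 0.180 to 0.303% fell on the 194 enzymes. Levels of a gene across libraries are given as deposited normalized counts, as lowest, median and highest of the 8 mice of a strain, and levels of different genes are compared as TPM (a transcript share scaled to a fixed total), which corrects for exon length. The 6 markers of mature vomeronasal neurons summed to between 1895 and 3005 TPM in every library. Of the liver markers, Alb never exceeded 0.550 TPM, Ttr 0.724 and Fgb 0.314, whereas Serpina1c was at 141 TPM in 129 male 1. Libraries that stood apart were B6 female 1 and 129 male 1, whose 6 markers of respiratory ciliated cells summed to 152 and 148 TPM against 37.5 to 73.0 in the other 30 libraries, and B6 males 3 and 4, with 22.2 and 5.61 TPM of Stoml3, a gene of main olfactory neurons, against at most 2.42 in the other libraries. Of the 7 markers listed for these neurons, Stoml3, Cnga2 and Gnal were highest in these males, whereas Adcy3, Cngb1, Rtp1 and Gng13 were within the range of the other libraries, as was the sum of the 7, at 678 and 649 TPM (503 to 1132 over all 32). Adcy3 was at 13.7 to 41.8 TPM over all libraries and Rtp1 at 338 to 676 TPM. A small share of main olfactory tissue might therefore not show in such genes or in the sum. Of the 66 calls of an enzyme in a pair of strains described below, 59 remained without B6 female 1 and 129 male 1 and 55 without B6 males 3 and 4 as well. Aox3, Gsta4, Gstm2 and Gstp1, in which B6 female 1 or 129 male 1 stood out, were called in no pair with or without these libraries. Reads on 267 genes of families best known from other tissues were taken as a measure of stray reads. They had medians of 2.08 rpm (129), 12.9 rpm (B6), 6.64 rpm (SJL) and 6.70 rpm (SWR), where rpm scales reads to a fixed library total. The families include taste receptors, some of which the study names as detected in the VNO, so the measure can also hold expressed genes. It was 6.71 rpm in 129 male 1 and at most 2.57 rpm in the other 129 mice.

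Most of the enzyme genes had few or no reads, and a few were abundant. The median TPM over all 32 libraries was 0 for 71 members, above 0 and up to 1 for 59 (23 of them at or below 0.1), 1 to 10 for 36, 10 to 100 for 22 and above 100 for 6. The 14 Cyp2c genes of a cluster on chromosome 19, the 8 Cyp3a genes of a cluster on chromosome 5 and the 8 Sult2a genes of a cluster on chromosome 7, families best known from the liver, had no member with enough reads to be tested. The enzymes together summed to a median of 2329 TPM, to which P450s gave 822, Gst 758, Sult 403, Ces 273, Ugt 40.0, Aox 17.4 and Fmo 17.02 (medians over libraries). The Ugt sum can be too low, because reads on exons shared between genes were assigned to none of them while TPM used the full exon length.

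Cyp2a5, a P450 of nasal epithelium and liver that hydroxylates coumarin and nicotine, had the highest median of all members, 380 TPM (239 to 1083). It was followed by Gstm1, an abundant mu-class transferase (316 TPM, 244 to 437), Ces1d, a carboxylesterase that hydrolyzes esters of drugs and lipids (225 TPM, 134 to 282), Sult1e1 (195 TPM, 90.1 to 340), the neuronal sulfotransferase Sult4a1 (151 TPM, 109 to 212) and Gsta4, which conjugates the lipid peroxidation product 4-hydroxynonenal (137 TPM, 94.0 to 217). Cyp2j6, Gstm5, Cyp51, Gstp1, Gstm2 and Cyp2f2 completed the 12 most abundant, with medians of 95.4 down to 39.6 TPM. The 12 held 68.9 to 82.5% of the summed TPM of the enzymes in a library.

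**Figure D1:**
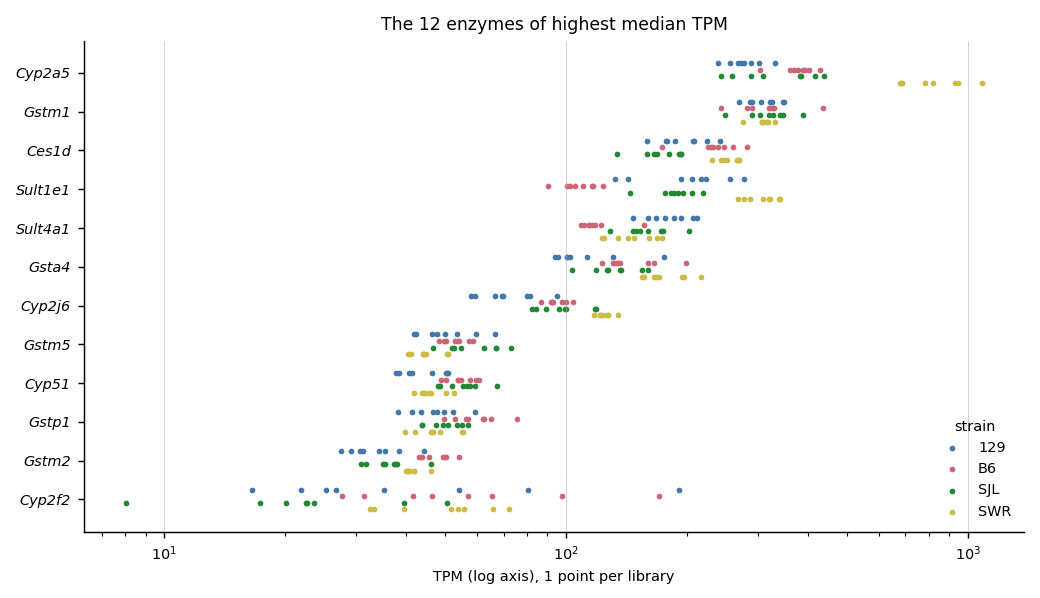
TPM of the 12 most abundant enzymes, 1 point per library, coloured by strain, on a logarithmic horizontal axis. Cyp2a5 lies to the right of every other enzyme in SWR, and Cyp2f2 has the widest spread, from 8.06 to 192 TPM.

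Differences between strains were tested for each of the 6 pairs with the quasi-likelihood test of edgeR, with sex as a covariate. A call required a log2 fold change (LFC) past 1 in either direction and, after Benjamini-Hochberg adjustment over all 18382 genes tested, a p (FDR) below 0.05. Of the 194 enzymes, 77 had enough reads to be tested and 117 did not. Of the 77, 31 (40.3%) were called in at least 1 pair of strains, against 19.8% of all genes tested. The filter keeps a gene that is read in a single group of 4 libraries, so a low gene that passed it often differs, and 12 of the 13 tested enzymes under a median of 1 TPM were called, beside 56.8% of all tested genes under that level. Among enzymes of at least 1 TPM, 19 of 64 were called, beside 13.9% of all genes of that level. The 8 and 8 values of a called pair did not overlap for 15 members, which is 19.5% of those tested, against 12.4% of all genes.

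By family, all 5 tested Ugt genes were called, 7 of 11 Ces, 3 of 5 Fmo and 2 of 4 Aox. The calls held 4 of 8 Sult, 9 of 28 Cyp and 1 of 16 Gst genes, where 19.8% of all tested genes were called. The tested Ugt1a genes were under a median of 1 TPM. At that level 12 of the 13 tested enzymes and 56.8% of all tested genes were called, so family and level are not separated in these counts. The difference between families was not tested.

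In the comparison of B6 with 129, 15 enzymes were called (19.5%, against 11.1% of all genes), 11 of them higher in B6 (all genes 8.72%) and 4 lower (2.40%). SJL and B6 differed in 13 (all genes 7.99%), of which 11 were lower in SJL (5.33%) and 2 higher (2.67%), and SWR and B6 in 17 (all genes 8.05%), of which 12 were lower in SWR (5.53%) and 5 higher (2.52%). Fewer enzymes were called between 129 and SJL, with 5 (all genes 8.38%), 3 higher in SJL (5.61%) and 2 lower (2.76%), between 129 and SWR, with 8 (all genes 7.73%), 6 higher in SWR (4.62%) and 2 lower (3.11%), and between SJL and SWR, with 8 (all genes 4.50%), 6 higher in SWR (2.19%) and 2 lower (2.31%). B6 also had more stray reads than 129. With these reads as a covariate, 6 enzymes were called between B6 and 129 in place of 15, 8 between SJL and B6, 10 between SWR and B6, and 13 between SWR and 129. The stray reads were at 1.16 to 6.71 rpm in 129 and 6.36 to 35.1 rpm in B6. With so little overlap, this covariate and the strain can hardly be told apart in that pair, and the cause of the lost calls was not tested.

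**Figure D2:**
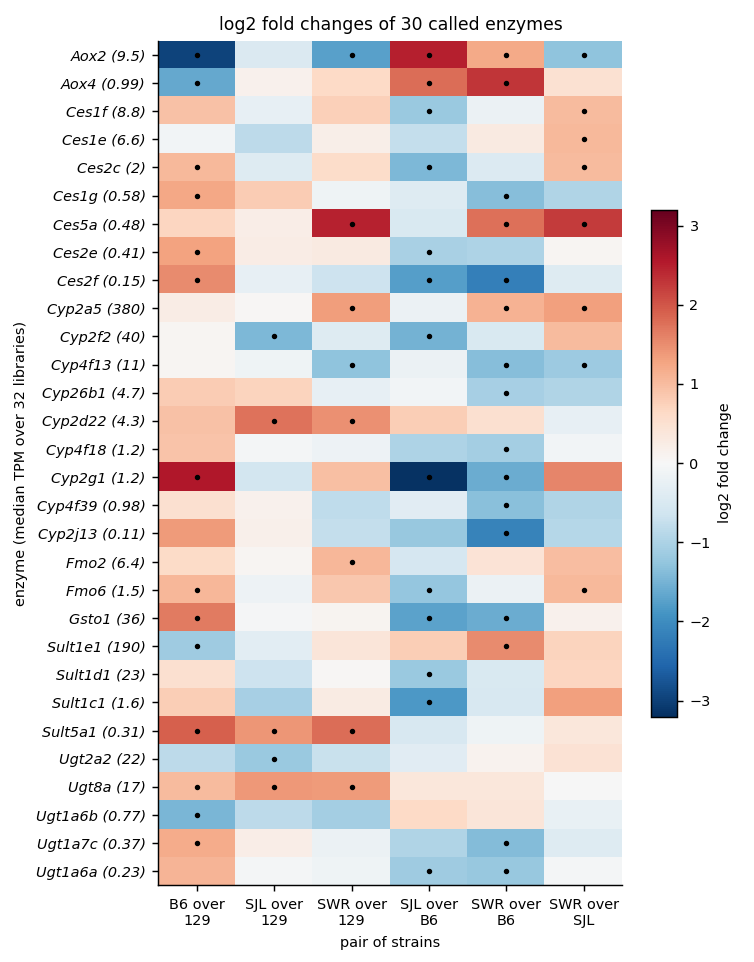
LFC of 30 of the called enzymes (rows, by family, with the median TPM) in the 6 pairs of strains (columns). Red is higher in the first strain of a pair and blue lower, dots mark calls, and Aox2, Aox4, Ces5a, Cyp2a5, Cyp4f13 and Ugt8a are among those with dots in 3 or more columns.

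SWR had the highest levels of Cyp2a5. Its normalized counts were 7178, 7790 and 11226 (lowest, median and highest) in SWR, 2922, 3918 and 4932 in B6, 2526, 3435 and 4476 in SJL and 2799.7, 3302 and 3877 in 129. The SWR values lay above those of all 24 other mice, which overlapped one another. The LFC of SWR was 1.34 ± 0.11 (SE) over 129 (FDR 1.60e-12), 1.30 ± 0.11 over SJL (FDR 5.60e-12) and 1.11 ± 0.11 over B6 (FDR 1.24e-10). B6 and 129 differed by an LFC of 0.23 ± 0.11 (FDR 0.0693). With Cyp2a5 in it, the P450 sum was 1102 to 1542 TPM in SWR and at most 933 TPM elsewhere. The summed TPM of 6 markers of sustentacular cells and Bowman's glands, which express Cyp2a5 in the main olfactory epithelium, was also highest in SWR (3141 to 3480) and at most 3119 in the other strains. Of these markers, Ermn and Gpx6 never exceeded 1.89 and 0.921 TPM, and Cbr2 and Krt18 made up most of the sum. Cbr2, Krt18, Gpx6 and Muc2 had their highest median in SWR. Ermn and Sec14l3 had theirs in B6, at 1.58 and 3.63 TPM against 0.210 and 1.26 in SWR. The part of these cells in the difference of Cyp2a5 was not tested.

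Cyp2a5 has a near twin, Cyp2a4, a steroid 15-alpha-hydroxylase, and because only uniquely placed reads were counted the pair is shown here in the stretch of 60 coding bases (596 to 655) that holds 4 of their 23 differences, with the differing bases in capitals.
Cyp2a5: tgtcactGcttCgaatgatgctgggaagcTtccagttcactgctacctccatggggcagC
Cyp2a4: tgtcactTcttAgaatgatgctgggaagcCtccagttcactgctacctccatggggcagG
The 1482 coding bases of the transcripts are 98.4% identical, and the longest run without a difference is 216 bases, longer than a read. Of the stretches of read length in Cyp2a5, 6.99% also occur in another gene, as do 6.32% of those of Cyp2a4. Cyp2a4 was close to absent, with a median of 0.105 TPM and 45 reads in all 32 libraries together, and was not tested.

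Cyp2a5 lies on chromosome 7 (26835305 to 26843548, plus strand of GRCm38). The RefSeq promoter window of the same build covers 250 bases before to 50 after the RefSeq start. It is shown because it holds TATAAA, in capitals, 29 bases before that start. The RefSeq start lies further along than the first base of the gene given above, so the motif falls inside the gene as placed there.
Cyp2a5, chr7:26835089-26835388, plus strand: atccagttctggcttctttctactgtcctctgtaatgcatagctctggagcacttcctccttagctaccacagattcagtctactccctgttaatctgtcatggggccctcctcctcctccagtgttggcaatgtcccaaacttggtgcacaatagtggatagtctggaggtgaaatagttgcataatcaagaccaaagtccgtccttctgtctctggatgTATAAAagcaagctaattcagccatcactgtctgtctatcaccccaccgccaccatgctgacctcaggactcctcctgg
On both strands, TATAAA was found in 30.0% of the 180 promoter windows of the enzymes (157 genes), in 16.7% of the 72 windows of tested enzymes and in 13.6% of all 32851 windows. The core of the xenobiotic response element, GCGTG, the letters that the aryl hydrocarbon receptor recognizes, was in 19.4%, 30.6% and 32.4% of the same sets, and the core of the antioxidant response element, TGACNNNGC, in 5.56%, 8.33% and 12.4%. Neither is in the Cyp2a5 window.

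Of the 8 P450s in the cluster on chromosome 7 that holds Cyp2a5, Cyp2g1 and Cyp2f2 were the others tested. Cyp2g1, a P450 restricted to olfactory mucosa and known from sustentacular cells and Bowman's glands, had normalized counts of 5.54, 12.02 and 15.0 in 129, 9.32, 18.1 and 437 in B6, 0.626, 6.06 and 19.8 in SJL and 12.4, 21.5 and 34.5 in SWR. The 437 is B6 male 3, and the next B6 value is 72.5. Cyp2g1 was called higher in B6 than in 129 (LFC 2.57 ± 0.64, FDR 0.00109) and SJL and SWR lower than B6 (LFC -3.15 ± 0.67, FDR 0.000234, and -1.60, FDR 0.0323). Without B6 males 3 and 4, B6 female 1 and 129 male 1, the LFC of B6 over 129 was 0.40 (FDR 0.356) and that of SJL over B6 -0.89 (FDR 0.0451), that of SWR over B6 turned to 0.57 (FDR 0.157), and none of these was called. SWR over SJL, at 1.56 (FDR 0.0876) with all libraries, was then called (LFC 1.46, FDR 0.000192). Cyp2g1 was at 42.6 TPM in B6 male 3 and 6.19 in B6 male 4, the libraries with 22.2 and 5.61 TPM of Stoml3 and 9.04 and 2.15 TPM of Cnga2, a channel of main olfactory neurons that reached at most 0.729 TPM elsewhere. As given above, Adcy3, Cngb1, Rtp1 and Gng13 and the sum of the 7 markers of these neurons were not raised there. These genes were well above 0 TPM in every library and might not show a small share of that tissue. Of the 6 markers of sustentacular cells and Bowman's glands, Sec14l3 was at 19.3 and 6.53 TPM there, with 17.4 in SJL male 4. The others, Ermn (1.69 and 0.962) and Gpx6 (0.310 and 0) among them, were within the range of the other libraries. So was their sum, at 2310 and 2387 TPM. The part of such tissue in the Cyp2g1 values was not tested.

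Cyp2f2, which oxidizes naphthalene in the Clara cells of the airway and in olfactory mucosa, had 169, 323 and 2401 normalized counts in 129, 287, 533 and 1915 in B6, 87.7, 211 and 462 in SJL and 323, 478 and 779 in SWR. The highest values of 129 and B6 were those of 129 male 1 and B6 female 1. SJL was called lower than 129 (LFC -1.45 ± 0.44, FDR 0.00899) and than B6 (LFC -1.50 ± 0.44, FDR 0.00550), with overlapping values. Without these libraries the LFC was -0.84 (FDR 0.0300) and -1.06 (FDR 0.00530), and without B6 males 3 and 4 as well neither was called. The LFC of SWR over SJL was 1.02 with all libraries (FDR 0.0732) and 1.02 without the 4 (FDR 0.00899), where it was called.

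Cyp4f13, a member of a fatty acid hydroxylase family whose genes lie in a row on chromosome 17, was lower in SWR. It had 107, 111 and 134 normalized counts in SWR against 255, 270.1 and 299 in 129, 193, 302 and 331 in B6 and 205, 259 and 298 in SJL, with no overlap. The LFC of SWR was -1.29 ± 0.09 over 129 (FDR 1.44e-14), -1.35 ± 0.09 over B6 (FDR 4.09e-15) and -1.16 ± 0.09 over SJL (FDR 4.10e-13), and the 3 calls remained without the 4 libraries that stood apart. Of the 8 Cyp4f genes of the cluster 6 were tested. Cyp4f39, which omega-hydroxylates very long fatty acids in the skin, was also called lower in SWR than in B6 (LFC -1.33 ± 0.24, FDR 3.68e-05), and the other 4 were not called in any pair.

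Cyp2d22 was lowest in 129, with 23.1, 35.1 and 57.1 normalized counts against 59.2, 66.2 and 93.8 in B6, 82.9, 98.4 and 126 in SWR and 100.1, 119 and 138 in SJL. The 129 mice lay below all others, B6 below SJL, and SWR overlapped both B6 and SJL. SJL exceeded 129 by an LFC of 1.73 ± 0.13 (FDR 4.76e-13) and SWR by 1.45 ± 0.13 (FDR 3.85e-11), or by 1.86 and 1.58 without the 4 libraries that stood apart. It was the one tested gene of the 9 in the Cyp2d cluster.

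Cyp2j6, an epoxygenase of arachidonic acid, ranged from 1296 to 1962 normalized counts in 129, B6 and SJL and from 1974 to 2576 in SWR. SWR thus lay above every other mouse, by an LFC of 0.59 ± 0.07 over 129 (FDR 5.36e-09), under the limit of a call. Cyp2s1 (4.59 TPM) and Cyp4b1 (3.11 TPM), P450s of airway epithelia, were not called in any pair. Cyp1a2, a target of the aryl hydrocarbon receptor that is abundant in rat olfactory mucosa, and Cyp2e1, the ethanol-inducible P450, had medians of 0.0419 and 0.184 TPM and were not tested. Cyp1a2 had 0 reads in all 8 libraries of 129, which a true expectation of up to 3 reads over the 8 together allows. It had 21.3 normalized counts in B6 male 3, but at most 4.39 in the other B6 mice and 4.21 in SJL and SWR.

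Aox2 showed the largest difference between strains among the enzymes whose values did not overlap. The aldehyde oxidases are molybdenum enzymes that turn aldehydes, retinal among them, into acids, and Aox2 is the form known from nasal mucosa and its Bowman's glands. Aox2 had 555, 634 and 741 normalized counts in 129, 337, 482 and 549 in SJL, 158, 191 and 232 in SWR and 54.4, 65.7 and 199 in B6. The 4 strains thus fell into a series, with 129 above SJL above SWR, and only the ranges of SWR and B6 overlapped, through the 199 of B6 male 3. Relative to 129, the LFC was -2.96 ± 0.17 in B6 (FDR 3.95e-16) and -1.75 ± 0.15 in SWR (FDR 1.88e-11), both called, and -0.46 ± 0.14 in SJL (FDR 0.0112). Without the 4 libraries that stood apart, the LFC of B6 over 129 was -3.27 (FDR 3.86e-21).

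Aox4, the form known from the Harderian gland and skin, is the neighbour of Aox2 on chromosome 1 and was also lowest in B6. It had 2.86, 12.8 and 27.8 normalized counts in B6, 34.1, 39.0 and 55.2 in 129, 38.4, 43.9 and 60.03 in SJL and 51.0, 63.2 and 86.3 in SWR. B6 lay below all other mice, by an LFC of -1.65 ± 0.21 relative to 129 (FDR 8.54e-08). SJL exceeded B6 by 1.79 ± 0.21 (FDR 1.47e-08) and SWR by 2.29 ± 0.21 (FDR 3.72e-11). The order of the other strains was not that of Aox2, since SWR, low in Aox2, was the highest in Aox4. The other genes of the row, Aox1 and Aox3, were not called. Aox1, a form also found in liver, had a median of 110.4 in 129, 89.8 in SJL, 70.9 in B6 and 55.0 in SWR, where SWR lay below 129 without overlap at an LFC of -0.97 ± 0.15 (FDR 1.60e-06). Aox3 reached 695 in 129 male 1 and 502 in B6 female 1 against medians of 169 and 166 in their strains.

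The genes of the row occupy 58029931 to 58380259 of chromosome 1 in the order Aox1, Aox3, Aox4, Aox2, all on the plus strand. The promoter windows of the pair that was lowest in B6 are shown as the reference has them, which is the sequence of B6, with TATAAA in capitals.
Aox4, chr1:58210147-58210446, plus strand: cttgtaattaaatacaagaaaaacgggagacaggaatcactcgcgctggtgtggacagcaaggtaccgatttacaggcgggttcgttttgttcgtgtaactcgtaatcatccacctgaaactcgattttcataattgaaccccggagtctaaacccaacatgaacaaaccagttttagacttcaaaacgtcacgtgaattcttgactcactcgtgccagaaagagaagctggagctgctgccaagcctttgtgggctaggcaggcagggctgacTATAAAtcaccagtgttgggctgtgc
Aox2, chr1:58278076-58278375, plus strand: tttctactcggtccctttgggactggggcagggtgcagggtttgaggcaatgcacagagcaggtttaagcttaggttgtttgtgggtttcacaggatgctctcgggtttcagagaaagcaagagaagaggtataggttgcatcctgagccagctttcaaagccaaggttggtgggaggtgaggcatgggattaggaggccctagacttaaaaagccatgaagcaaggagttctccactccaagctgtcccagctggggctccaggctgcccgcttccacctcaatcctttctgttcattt
In the Aox4 window TATAAA lies 24 bases after the start, and neither GCGTG nor TGACNNNGC is in either window. All reads were mapped to the genome of B6, and reads of the other strains that differ from it can be lost. Such losses would lower the counts of the other strains, by amounts that can differ among them. Aox2 and Aox4 had their lowest median in B6, but differences among the other strains, such as Aox2 in SWR and SJL, can still be affected. The limit also applies to genes that were lowest in another strain, such as Cyp4f13, Cyp2d22, Ugt8a, Ces1d and Mgst2. It applies as well to calls that were higher in B6, such as those of Gsto1. The part of such losses in the counts was not tested.

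**Figure D3:**
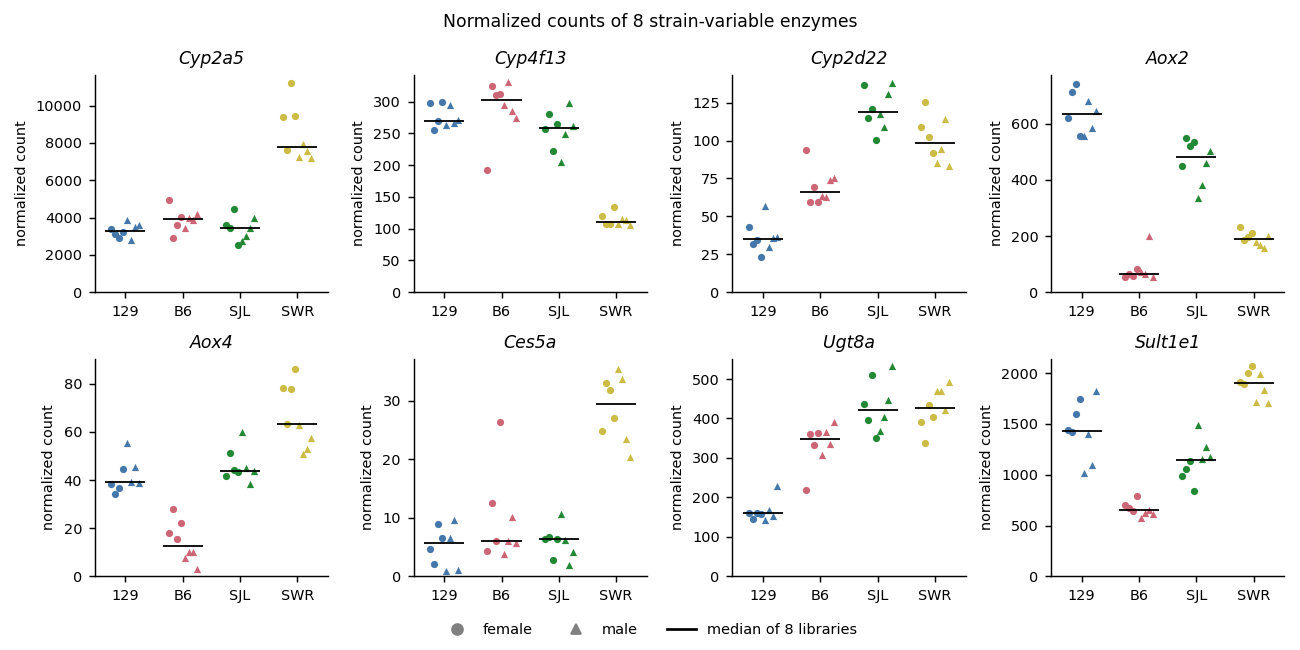
Normalized counts of 8 strain-variable enzymes by strain, with circles for females, triangles for males and lines for the median of 8 mice. SWR stands above all other mice for Cyp2a5 and below them for Cyp4f13, 129 is lowest for Cyp2d22, and B6 is lowest for Aox4.

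The flavin-containing monooxygenases, which oxidize nitrogen and sulfur atoms of amines and sulfides, were low, and Fmo2, the lung form, had their highest median, 6.38 TPM. Fmo2 had 53.5, 93.8 and 407 normalized counts in 129, 171, 189 and 268 in B6, 103, 142 and 161 in SJL and 227, 275 and 293 in SWR. The 407 is 129 male 1, and the next 129 value is 125.1. SWR exceeded 129 by an LFC of 1.05 ± 0.24 (FDR 0.000451), and by 1.59 (FDR 8.89e-14) without 129 male 1 and B6 female 1. With stray reads as a covariate the LFC was 0.77 (FDR 0.00786), and leaving out 129 female 2, female 3, male 2 or male 4 also ended the call.

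Fmo6 was higher in B6 (13.9, 17.8 and 52.7 normalized counts) than in SJL (6.88, 9.33 and 13.6) without overlap, at an LFC of SJL over B6 of -1.23 ± 0.35 (FDR 0.00395). Fmo1, with medians of 144 in SJL to 217 in B6, was not called.

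Of the carboxylesterases, 11 of 19 were tested and 7 called. Ces1d, the abundant member, was not called but was lowest in SJL, with 1488, 2070.2 and 2149.8 normalized counts against 2330.3, 2631 and 3031 in 129, 2282, 2811 and 2991 in B6 and 2593, 3059.5 and 3278 in SWR. SJL lay below all mice of the other strains, at an LFC of -0.42 ± 0.07 over 129 (FDR 4.84e-06). Its neighbour Ces1e was called between SWR and SJL (LFC 1.04 ± 0.12, FDR 1.12e-08, no overlap).

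Ces5a, a secreted esterase known from the epididymis and also called cauxin, was higher in SWR. It had 20.3, 29.4 and 35.4 normalized counts in SWR against medians of 5.60 in 129 (0.936 to 9.53), 6.04 in B6 (3.73 to 26.3) and 6.29 in SJL (1.97 to 10.6). The SWR values overlapped only those of B6, through the 26.3 of B6 female 4. The LFC of SWR was 2.46 ± 0.34 over 129 (FDR 2.71e-07), 2.25 ± 0.32 over SJL (FDR 1.06e-06) and 1.77 ± 0.32 over B6 (FDR 3.25e-05). Ces2f was at 5.12, 10.97 and 23.6 in B6 and at 0, 2.45 and 4.50 in SWR (LFC of SWR over B6 -2.18 ± 0.54, FDR 0.00137, no overlap), a gene of 0.149 TPM. With at least 10 reads required in every library of a group, it was not tested, and with stray reads as a covariate the LFC was -1.17 (FDR 0.108). Without the 4 libraries that stood apart it was -2.12 (FDR 0.00162). The other called carboxylesterases, Ces1f, Ces2c, Ces1g and Ces2e, changed by an absolute LFC of at most 1.44.

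Among the glucuronosyltransferases and their relatives, Ugt2a2 and Ugt8a were the abundant ones. Ugt2a2 and Ugt2a1, the olfactory form that glucuronidates odorants, share exons at their 3' end, and 94.5% of the exon length of Ugt2a2 overlaps another gene on its strand. Ugt2a1 was listed with 0 reads in all libraries, and reads that fall on exons of both genes were assigned to neither, so the transcripts of the locus cannot be told apart. Ugt2a2 had 298, 465.6 and 689 normalized counts in 129, 177, 261 and 370.1 in B6, 231, 284 and 398 in SWR and 161, 205 and 253 in SJL. SJL lay below 129 without overlap (LFC -1.18 ± 0.13, FDR 5.55e-09), and the other pairs were not called.

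Ugt8a was lowest in 129. It had 143, 159.7 and 228 normalized counts in 129 against 219, 348 and 390.0 in B6, 351, 420.5 and 532 in SJL and 337, 428 and 491 in SWR. SJL and SWR lay above 129 without overlap (LFC 1.38 ± 0.10, FDR 1.19e-13, and 1.37 ± 0.10, FDR 1.38e-13), and B6 by 1.02 ± 0.10 (FDR 2.86e-10) with an overlap. The summed TPM of 5 markers of ensheathing and Schwann cells, the glia that also make galactolipids, had its lowest median in B6 (34.5), then 129 (46.3), SWR (61.5) and SJL (68.9), so that B6 was lowest in these markers while its Ugt8a exceeded that of 129. Their part in the difference was not tested. The tested Ugt1a genes, which share their last exons, were Ugt1a6a, Ugt1a6b and Ugt1a7c. All had a median under 1 TPM, a level that unassigned reads on the shared exons can lower. Of the read-length stretches of Ugt1a6a, 49.8% occur in another gene, and the calls of these Ugt1a genes are uncertain. The 2 calls of Ugt1a6a, SJL and SWR lower than B6, were lost without the 4 libraries that stood apart, and B6 over 129 was then called (LFC 1.71, FDR 0.00381).

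Of the glutathione transferases 16 were tested, and 15 of them were not called in any pair. Gstm1 had medians of 2220.4 in B6 to 2604 in 129, and its largest LFC was -0.22 ± 0.07 for SWR over 129 (FDR 0.00901). Gsta4 had medians of 747 in 129 to 1086 in SWR, Gstp1 372 in SWR to 446 in B6, Gstm2 298 in SJL to 392 in B6 and Gstm5 268 in SWR to 373 in SJL. Gstt1, of the theta class, had 65.9 in SWR to 83.5 in B6. Gstp2, with a median of 2.31 TPM, shares 41.8% of its read-length stretches with other genes, and Gstp1 21.8%.

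Gsto1, which reduces methylated arsenic compounds and dehydroascorbate, was the one called transferase. Its normalized counts were 564, 746 and 3240.2 in B6, 149.7, 209 and 1208 in 129, 240.2, 344 and 372 in SJL and 254, 352 and 451 in SWR. B6 lay above every mouse of SJL and SWR. The LFC of B6 over 129 was 1.66 ± 0.36 (FDR 0.000262), of SJL over B6 -1.71 ± 0.36 (FDR 0.000207) and of SWR over B6 -1.58 ± 0.36 (FDR 0.000559). The highest values were those of B6 female 1 and 129 male 1, where Foxj1, the regulator of motile cilia, was at 35.4 and 37.3 TPM against at most 8.68 elsewhere. Without these libraries the LFC was 1.71 for B6 over 129 (FDR 2.40e-12), -1.12 for SJL over B6 (FDR 6.39e-09) and -0.995 (FDR 6.86e-08) for SWR over B6, which no longer passed the limit of the LFC, and without B6 males 3 and 4 as well the last was -1.06 (FDR 2.32e-07). With stray reads as a covariate, which hardly overlapped between these strains, the LFC of B6 over 129 was 1.30 (FDR 0.0525).

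**Figure D4:**
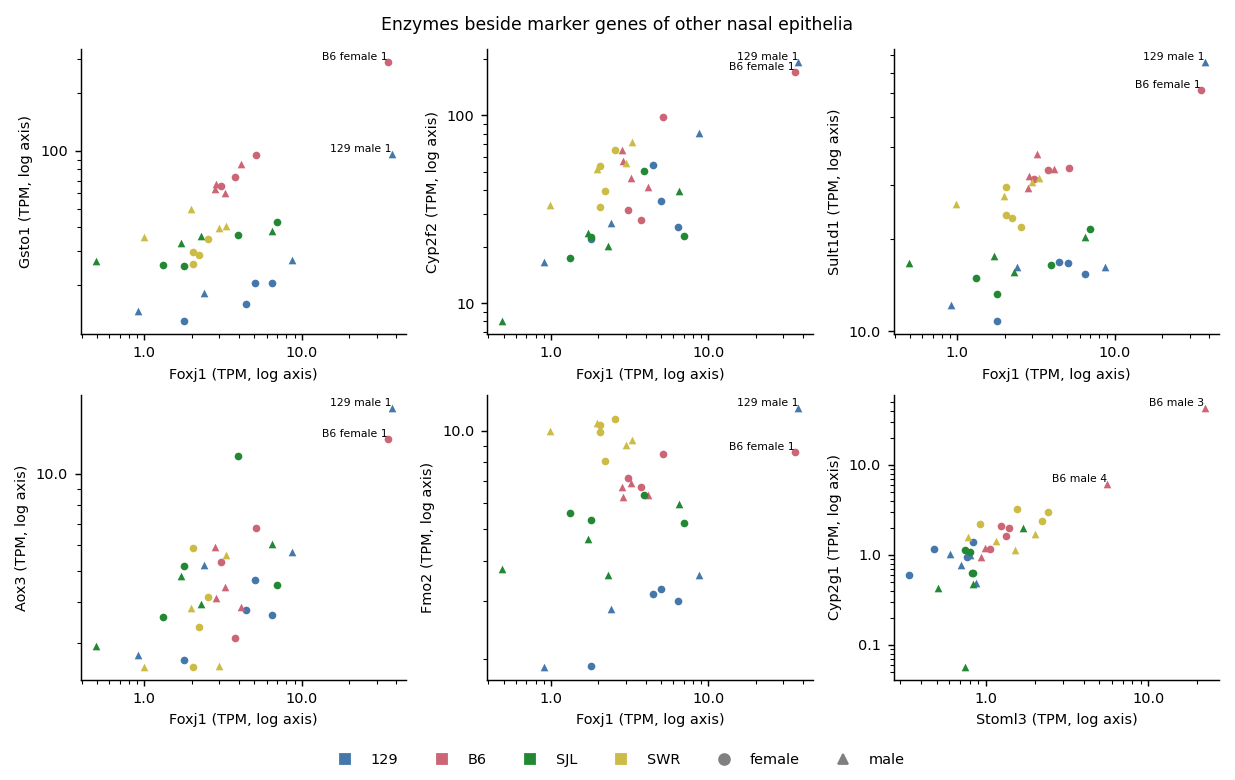
TPM of 6 enzymes against TPM of Foxj1 (respiratory ciliated cells) or Stoml3 (main olfactory neurons), 1 point per library, on logarithmic axes. B6 female 1 and 129 male 1 stand at the far right of the Foxj1 panels and high in them, although SWR mice exceed B6 female 1 for Fmo2, and B6 males 3 and 4 stand at the top right for Cyp2g1.

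Sult1e1 had the largest LFC of the sulfotransferases called without overlap. It had 576, 649 and 788 normalized counts in B6, 844, 1147 and 1494 in SJL, 1021, 1431 and 1826 in 129 and 1703, 1903 and 2069 in SWR. B6 lay below all other mice and SWR above all SJL and B6 mice, while 129 overlapped both SJL and SWR. The LFC was -1.14 ± 0.10 for B6 over 129 (FDR 2.05e-11) and 1.52 ± 0.10 for SWR over B6 (FDR 1.44e-14). SJL exceeded B6 by 0.80 ± 0.10 (FDR 6.14e-08), below the limit of a call.

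Sult4a1 also was lowest in B6 and highest in 129, with medians of 1457 and 2619.8, at an LFC of -0.80 ± 0.06 (FDR 1.36e-13, no overlap). Sult1d1, which sulfates catecholamines, was 346, 411 and 841 in B6 and 153, 208 and 237 in SJL (LFC -1.18 ± 0.28, FDR 0.000922, no overlap). Its LFC was -0.94 (FDR 3.68e-09) without B6 female 1 and 129 male 1, which had 841 and 1152 normalized counts. Sult1c1, a form known from olfactory mucosa, had medians of 7.92 in SJL to 24.8 in SWR and was called lower in SJL than in B6 (LFC -1.84 ± 0.63, FDR 0.0173), a call that leaving out B6 female 1 or B6 female 3 ended.

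The 19 genomic clusters of at least 3 members each, with gaps of at most 300 kb, held 145 of the 194 enzymes. Called enzymes lay beside tested but uncalled ones in several clusters. In the cluster of Ces1 genes and Ces5a on chromosome 8, 4 of 6 tested genes were called, in that of Ces2 to Ces4 genes, 3 of 5, in the Ugt2 and Sult1 cluster on chromosome 5, 3 of 4, in the Fmo cluster on chromosome 1, 3 of 4, and in the Aox cluster, 2 of 4, where 19.8% of all tested genes were called. In the Ugt1a cluster and that of Cyp2a5, all 3 tested genes were called, in the Cyp4f cluster 2 of 6, in the Cyp2j cluster 1 of 3, and in the Cyp2d cluster the 1 tested. None was called among the 5 tested genes of the Gstm cluster, the 3 of Gstt, the 2 of Gstp, the 2 of the cluster of Cyp4a genes, Cyp4b1 and Cyp4x1, the 1 of Gsta and the 1 of the cluster of Cyp2s1. The Cyp2c, Cyp3a and Sult2a clusters had no tested member.

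Sex was compared over all strains first. Between 16 males and 16 females, with strain as an additive term, 0 of the 77 tested enzymes passed both a 2-fold change and an FDR of 0.01 (all genes 0.0381%) by edgeR, and 0 by DESeq2. An unadjusted p under 0.05 was reached by 12 enzymes, 15.6% of those tested, beside 8.97% of all genes. Without a limit on the LFC, 2 passed an FDR of 0.05 (all genes 0.283%), and these are named after their values were seen. Gsta3, an alpha-class transferase that also isomerizes steroids, was higher in males, at 561 ± 154 against 456 ± 121 normalized counts (mean ± SD, n = 16 each, over strains that differ in level), with an LFC of 0.30 ± 0.05 (FDR 0.00205). In 129 and SJL all males lay above all females. Cyp1b1, which hydroxylates estradiol, was higher in females, at 195 ± 36.9 against 159 ± 44.4 (LFC of males over females -0.30 ± 0.07, FDR 0.0359). Within no strain was the difference of either gene past an FDR of 0.05.

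Within single strains, 1 enzyme was called in B6 (all genes 0.0544%) and 0 in 129 (all genes 0.0381%), SJL (0.0544%) and SWR (0.0816%) by edgeR at a 2-fold change and an FDR of 0.05. DESeq2 called 2 in B6 and 0 in the others. An unadjusted p under 0.05 was reached by 14 enzymes in 129 (all genes 7.87%), 15 in B6 (9.14%), 6 in SJL (6.64%) and 10 in SWR (8.25%). The enzyme called was Aox4. The B6 females had 18.1, 27.8, 15.4 and 21.9 normalized counts and the B6 males 7.45, 10.2, 10.1 and 2.86, so that the sexes did not overlap. The LFC of males over females was -1.40 ± 0.27 (FDR 0.0173). It was 0.22 ± 0.20 in 129, 0.07 ± 0.19 in SJL and -0.46 ± 0.18 in SWR, where all females also lay above all males. The call in B6 rests on few reads, and the FDR rose to between 0.0509 and 0.152 when B6 female 2, B6 female 4, B6 male 1 or B6 male 4 was left out. Without all 4 libraries that stood apart the LFC was -1.24 (FDR 0.388).

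The interaction of sex and strain was past an FDR of 0.05 for 0 enzymes (all genes 0.0163%) by edgeR, with 13 at an unadjusted p under 0.05 (all genes 8.94%). Aox4 had the lowest FDR, 0.138, and by DESeq2 it was the 1 enzyme called. Whether its sex effect differed among strains thus depended on the test used.

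**Figure D5:**
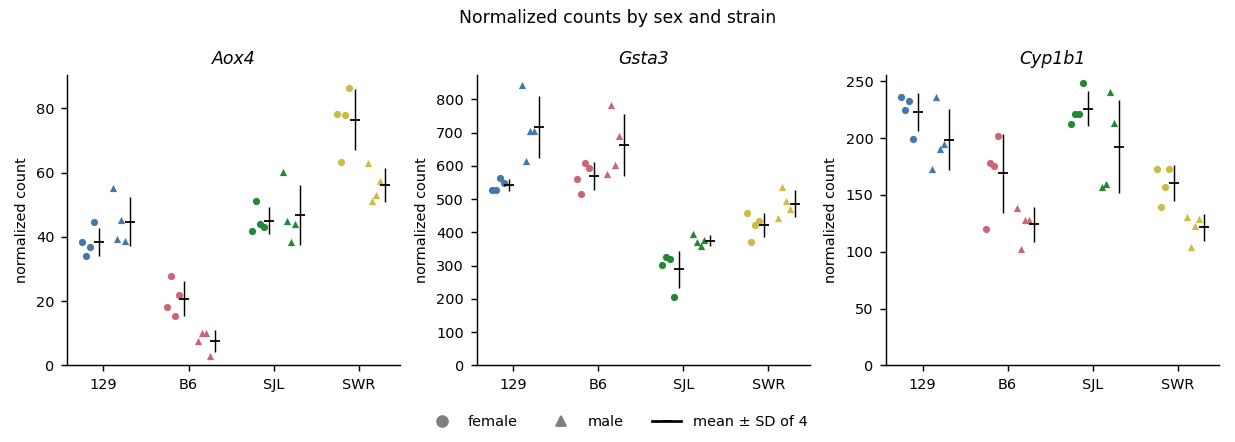
Normalized counts of Aox4, Gsta3 and Cyp1b1 by strain and sex, with circles for females, triangles for males and bars for the mean ± SD of 4 mice. The B6 males lie at 2.86 to 10.2 for Aox4, below the B6 females.

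Genes that work with these enzymes were described from a list of 66 redox partners, cofactor suppliers, other phase enzymes, receptors and efflux transporters. Of the 61 tested, 13 were called in at least 1 pair of strains, 21.3% against 19.8% of all genes. The 6 with the largest LFC among those called without overlap were of several roles. Mgst2, a microsomal glutathione transferase, was nearly absent in 129 (0, 4.14 and 9.36 normalized counts), low in B6 (5.08, 12.03 and 26.3) and higher in SJL (32.7, 37.0 and 42.6) and SWR (29.6, 38.9 and 56.7), with an LFC of SWR over 129 of 3.30 ± 0.31 (FDR 7.69e-11). Hpgds, which makes prostaglandin D2 in mast cells and macrophages, was higher in B6 and SJL than in 129 (LFC 1.34 ± 0.15, FDR 6.11e-09, and 1.27 ± 0.15, FDR 2.25e-08). Macrophage markers summed to a median of 43.8 TPM in 129 against 137 in B6 and 101 in SJL, and their part in the difference was not tested.

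Tiparp, a target and repressor of the aryl hydrocarbon receptor, was at 546, 652 and 673 normalized counts in SWR and between 264 and 404 in all 24 other mice (LFC of SWR over 129 1.03 ± 0.05, FDR 5.15e-18). Nqo1, a quinone reductase and target of Nfe2l2, was as abundant as the top enzymes (325 TPM) and higher in SJL than in B6 (LFC 1.03 ± 0.07, FDR 2.69e-14, no overlap). The efflux pump Abcc2 was higher in SJL than in 129 (LFC 1.70 ± 0.25, FDR 9.38e-07), and Abcb1a, another pump, was lower in SWR than in B6 (LFC -1.32 ± 0.26, FDR 0.000127), each without overlap.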

How the data were processed

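VNO tissue RNA was depleted of ribosomal RNA and sequenced as stranded 125-base pairs. The authors trimmed the reads (Trim Galore), aligned them with STAR to GRCm38 (mm10) with Ensembl annotation, and deposited whole read counts per gene from uniquely mapped pairs. The authors also deposited these counts divided by DESeq2 size factors, a signal table called normalized counts here.

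From the counts, genes were kept by filterByExpr, given the 8 strain-by-sex groups, and tested with the quasi-likelihood F test of edgeR 4.0.16 (R 4.3.3, TMM), with sex as a covariate for strains and strain for sexes, and Benjamini-Hochberg adjustment. SE was taken as LFC/sqrt(F). TPM used exon-union lengths of GENCODE annotation of the same build, which matched all 194 members. Stretches of 125 bases and promoter windows came from that build and RefSeq.

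Members were taken by the symbol rule, and 1 tested member is counted but its own values are not reported here. Members and lists were chosen with earlier results of these data known. Genes named are the 12 members with the largest LFC called without overlap, the 12 most abundant, members called for sex, a list of nasal enzymes, and the 6 partner genes with the largest LFC called without overlap. Other members named were chosen after their values were seen.

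Alternatives were DESeq2 1.42.0, its size factors in edgeR, no filter or a stricter one, a replicate block, stray reads as a covariate, limits on the fold change, and libraries left out. The test was tested on simulated data with 17940 genes in the comparison of SWR with 129, where it called 27 of 50 genes changed by a log2 of 1, 49 of 50 at 1.5, and 4 of 17740 unchanged genes. The replicate numbers are lane numbers in the labels. Correlations of deviations from the group means between same-numbered libraries of different groups ranged from -0.289 to 0.477 (median -0.0130, 112 pairs), so the numbers were not taken to pair mice.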

Additional observations from a re-analysis of the deposited data

Results flagged for a closer look

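In each strain, a named enzyme was examined for a highest or lowest mouse whose gap to the next is wide for the range of the 8 (Dixon's 95% limit). This marked 32 mice and genes among 136 groups of 8. Chance marks about 1 group in 20 where groups are independent and values normally distributed. Counts need not be so distributed, and genes that rise together in a library are marked together, so that rate is only a rough guide. The values of enzymes are normalized counts, and the part of the cell markers in them was not tested.

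The library of 129 male 1 was marked 10 times, always high. Its values were 695 for Aox3, 15.9 for Ces2f, 2401 for Cyp2f2, 407 for Fmo2, 1375 for Gsta4, 568.1 for Gstp1, 459.5 for Gstm2, 1208 for Gsto1, 1152 for Sult1d1 and 19.7 for Ugt1a6a. B6 female 1 was marked 9 times, with high values of 502 for Aox3, 1915 for Cyp2f2, 93.8 for Cyp2d22, 268 for Fmo2, 1397 for Gsta4, 650.2 for Gstp1, 3240.2 for Gsto1 and 841 for Sult1d1 and a low value of 193 for Cyp4f13. Aox3, Cyp2f2, Fmo2, Gsta4, Gstp1, Gsto1 and Sult1d1 were marked in both libraries, which also had the highest ciliated-cell and gland marker sums. Of the gland markers, Obp2a, Lcn3, Dmbt1 and Aqp5 were highest there. Obp1a, Bpifb9b, Muc5b and Prol1 were not, nor was Bpifa1, at 5.96 TPM in B6 female 1 and 14.1 in 129 male 1 and up to 243 elsewhere. Of the ciliated-cell markers, Ccdc39 was not highest there.

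SJL female 4 was marked 4 times, always low, at 1488 for Ces1d, 80.1 for Cyp2s1, 1722 for Gstm1 and 319 for Gstp1. In 129 male 4, Gstm5 was at 449 and Ugt8a at 228. In B6 female 4, Ces5a was at 26.3 and Fmo6 at 52.7. In B6 male 3, Aox2 was at 199 and Cyp2g1 at 437. The others were Aox3 at 358 in SJL female 1, Fmo2 at 227 in SWR female 3, which was low, and Ugt2a2 at 398 in SWR male 2.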

How the results depend on the processing

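The count of 31 of 77 enzymes called in at least 1 pair of strains, where 19.8% of all genes were called, was 31 with DESeq2 size factors (all genes 19.7%), 73 of 193 tested by DESeq2 (all genes 16.9%; 30 shared, the adjusted p of Sult1d1 was not given), 111 of 193 with no filter (all genes 28.6%), 24 of 69 with at least 10 reads in every library of 1 group (all genes 17.4%), 28 with stray reads as a covariate (25 shared; all genes 17%), 33 of 78 without B6 female 1 and 129 male 1 (all genes 21.8%), 34 of 82 without B6 males 3 and 4 as well (a choice made after seeing the data; all genes 24%), 71 with no limit on the LFC and 9 by glmTreat against a fold change of 2 (all genes 9.03%). Leaving out 1 library gave 29 to 34, and 22 of the 31 kept a call whichever library was left out. By pair, in the order B6 and 129, SJL and 129, SWR and 129, SJL and B6, SWR and B6, SWR and SJL, the counts of 15, 5, 8, 13, 17 and 8 became 52, 21, 15, 17, 21 and 9 by DESeq2, 88, 42, 33, 18, 27 and 10 with no filter, 10, 4, 8, 10, 12 and 7 with the stricter filter, 6, 8, 13, 8, 10 and 10 with stray reads, 23, 5, 11, 13, 17 and 7 without the pair of libraries, 22, 7, 13, 10, 16 and 8 without all 4, 42, 29, 45, 37, 40 and 34 with no limit on the LFC, and 3, 2, 6, 3, 3 and 2 by glmTreat. Leaving out 1 library gave 12 to 20, 5 to 10, 8 to 11, 11 to 16, 15 to 18 and 6 to 10. With a replicate block the count stayed 31, and by pair it was 17, 5, 8, 15, 16 and 10. The 13 partner genes became 50 with no limit on the LFC and 2 by glmTreat, and 11 to 13 with 1 library left out. Enzymes with a sex FDR under 0.05 numbered 1 to 3 with 1 library left out. The 1 enzyme called for sex in B6 became 2 by DESeq2, 3 with no filter, 2 with stray reads, 0 without the 4 libraries and 0 to 2 with 1 left out, and the 0 in 129 became 4 with no filter. The interaction count of 0 became 1 by DESeq2 and 11 with no filter. Cyp4b1 in B6 over 129 reversed, to an LFC of -0.24 with stray reads, and Cyp2g1 in SWR over B6, to 0.57 without the 4 libraries. Causes were not tested. Low genes limit these counts: no filter and DESeq2 tested many enzymes with few reads.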
